A study of Ovis aries with 6 samples.

Results

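The genes described here are 10 genes of the epidermal barrier lipid pathway, measured in skin from a pair of sheep breeds, the Super Merino (SM) and the Small Tail Han (STH). They were taken by symbol (SPTLC3, CERS3, UGCG, ABCA12, SMPD1, PNPLA1, ALOX12B, ALOXE3, SDR9C7 and SULT2B1), and all 10 were found among the 28394 genes of the deposited tables and passed the filter on low counts. Skin RNA from 3 SM ewes (sheep 128, 30034 and 30126) and 3 STH ewes (sheep XW3, XW5 and XW8) was sequenced, with 1 library for each animal. SM is a fine wool breed derived from Merino crosses, whereas STH sheep carry a coarse fleece. The sample records give an age of 9 months for all 6 animals, and the methods of the study give a different age, with both breeds kept on 1 farm and fed alike. No animal received a treatment, and breed is the only factor that separates the groups. Whole skin was taken behind the shoulder blade, so that epidermis, wool follicles, sebaceous glands, dermis and muscle were sequenced together.

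The outermost layer of the epidermis is made waterproof by stacked lipid sheets that fill the space between dead, flattened keratinocytes. These sheets hold ceramides, cholesterol and free fatty acids, and their precursors are made in living keratinocytes, glucosylated or built into sphingomyelin, loaded into lamellar bodies and converted back to ceramide after secretion. Ceramides that carry a linoleate esterified to a very long fatty acid are oxidised and then bound to the protein envelope of the cell. Inherited loss of several of these genes causes ichthyosis, a group of scaling skin disorders.

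Total counts ranged from 28870583 to 44645091, so that 3 counts corresponded to between 0.0672 and 0.104 CPM (counts scaled to a common library total). Levels below are CPM after TMM normalization, which corrects for differences in composition between libraries. Differences are log2 fold changes of SM over STH, with a standard error (SE), from the edgeR quasi-likelihood test over 15320 genes. A gene passed at an adjusted p under 0.05 and a change of more than 1.5-fold in either direction. By this test 0 genes passed, with a smallest adjusted p of 0.0606, although 2762 genes were under an unadjusted p of 0.05. The likelihood ratio test of edgeR passed 352 genes and DESeq2 passed 439. The share of counted fragments that appear in the gene totals, between 65.5 and 77.3%, overlapped between the breeds.

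None of the 10 barrier lipid genes passed the quasi-likelihood test, against 0.0% of all genes tested, and their adjusted p values lay between 0.247 and 0.996. None passed by the likelihood ratio test (2.3% of all genes) or by DESeq2 (2.87% of all genes) either. At an unadjusted p under 0.05 there were 3 of the 10, against 18.0% of all genes. SMPD1, which releases ceramide from sphingomyelin, had the higher level in SM sheep, and UGCG, which makes glucosylceramide, and ABCA12, which carries it into lamellar bodies, had the higher levels in STH sheep. The share of all genes at that p was 7.21% for a higher level in SM sheep and 10.8% for a higher level in STH sheep. The 2 breeds did not overlap in 2 of the 10 genes, SMPD1 (higher in SM, as were 12.3% of all genes without overlap) and UGCG (higher in STH, 13.3%), against 25.6% in either direction. The log2 fold change was above 0 in 4 of the 10, against 51.4% of all genes. Its median was -0.02 over the barrier lipid genes and 0.02 over all genes tested, and the median size of the change, without its sign, was 0.13 and 0.29 respectively. The genes tested were not matched in level to the 10, each of which had at least 244 counts in every sheep.

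**Figure D1:**
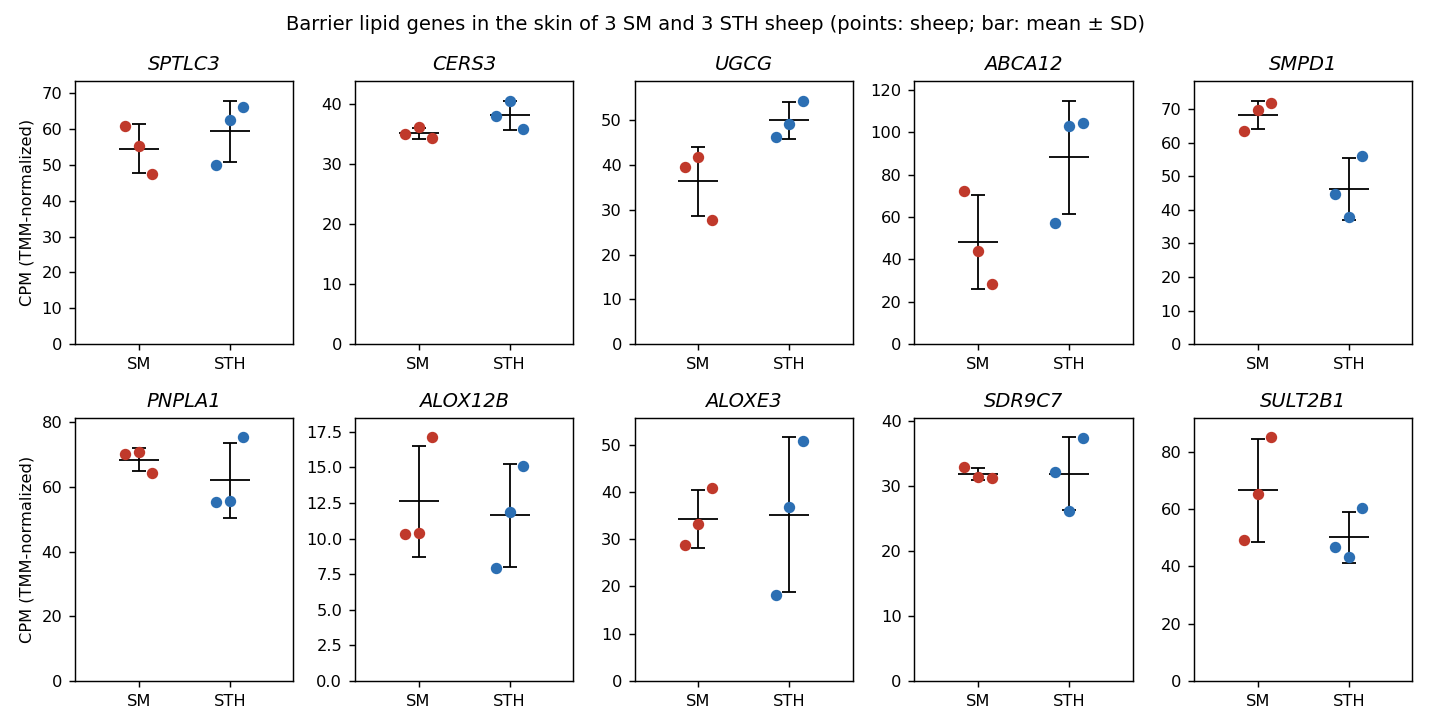
TMM-normalized CPM of the 10 barrier lipid genes on linear axes that start at 0, with 1 point for each sheep and a bar for the mean ± SD of 3 sheep. The points of the 2 breeds are apart for UGCG and SMPD1 and overlap for the other 8 genes.

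SPTLC3 is a subunit of serine palmitoyltransferase, the first enzyme of sphingolipid synthesis. Its gene (identifier 101110257) is annotated on chromosome 13, from 6055341 to 6196892 on the plus strand of Oar_v4.0, the build of the files. SPTLC3 was at 60.9, 55.1 and 47.4 CPM in SM (128, 30034 and 30126) and at 49.8, 62.4 and 66.0 CPM in STH (XW3, XW5 and XW8). The breeds overlapped, with the lowest value in an SM sheep and the highest in an STH sheep. The mean was 54.5 ± 6.76 CPM (SD, n = 3) in SM and 59.4 ± 8.50 CPM (SD, n = 3) in STH sheep. Between breeds this was a log2 fold change of -0.12 (SE 0.16, adjusted p = 0.667 by the quasi-likelihood test).

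CERS3 encodes the ceramide synthase that joins very long fatty acids to the sphingoid base (identifier 101110093, chromosome 18, from 5180747 to 5360604, plus strand). Its level was nearly the same in all animals, at 35.0, 36.2 and 34.4 CPM in SM (128, 30034 and 30126) and 38.0, 40.7 and 35.8 CPM in STH (XW3, XW5 and XW8). Sheep 30034 lay just above XW8, so that the breeds overlapped in spite of a narrow spread. The means were 35.2 ± 0.908 CPM (SD, n = 3) in SM and 38.2 ± 2.41 CPM (SD, n = 3) in STH sheep. The log2 fold change of -0.12 (SE 0.13) was smaller than its standard error, with an adjusted p of 0.615.

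UGCG encodes glucosylceramide synthase, which caps ceramide with glucose before the lipid enters lamellar bodies (identifier 101111687, chromosome 2, from 11605527 to 11643790, minus strand). UGCG was at 39.5, 41.8 and 27.6 CPM in SM (128, 30034 and 30126) and at 46.2, 49.2 and 54.3 CPM in STH (XW3, XW5 and XW8). All 3 STH sheep were above all 3 SM sheep, and sheep 30126 was well below the other SM animals. The mean level of 49.9 ± 4.12 CPM (SD, n = 3) in STH sheep was 1.37-fold higher in the fit than that of SM sheep, 36.3 ± 7.61 CPM (SD, n = 3). UGCG thus had a log2 fold change of -0.46 (SE 0.18), with an unadjusted p of 0.0336 and an adjusted p of 0.260 by the quasi-likelihood test. With each sheep left out in turn the log2 fold change ranged from -0.58 to -0.28, and the unadjusted p was under 0.05 in 3 of the 6 fits, those without sheep 128, 30034 or XW3. Without sheep 30126 the value was -0.28 (unadjusted p = 0.0659). With the share of fragments counted as a covariate, added after the data had been seen, it was -0.32 (unadjusted p = 0.0535).

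ABCA12 is the lipid transporter of the lamellar body membrane, and its loss causes the severe harlequin form of ichthyosis (identifier 101104887, chromosome 2, from 215944410 to 216151626, minus strand). ABCA12 was at 72.0, 44.1 and 28.3 CPM in SM (128, 30034 and 30126) and at 57.3, 103 and 104 CPM in STH (XW3, XW5 and XW8). The breeds overlapped because sheep 128 lay above XW3, while XW5 and XW8 were above every SM sheep. The means were 48.2 ± 22.1 CPM (SD, n = 3) in SM and 88.2 ± 26.8 CPM (SD, n = 3) in STH sheep, which was 1.83-fold higher in STH in the fit. The log2 fold change of -0.87 (SE 0.35) was the one of greatest size among the 10 genes, with an unadjusted p of 0.0336 and an adjusted p of 0.260. The gene passed both thresholds when sheep 128 was left out, at a log2 fold change of -1.28 and an adjusted p of 0.0348, in a fit in which 7.73% of all genes passed. Its unadjusted p was under 0.05 in 2 of the 6 fits with a sheep left out, those without sheep 128 or XW3. Without sheep 30126 the log2 fold change was -0.59 and the unadjusted p 0.0910. The log2 fold change was -0.66 with the exon length trend removed (unadjusted p = 0.0294). With the share of fragments counted as a covariate, an alternative added after the data had been seen, the log2 fold change was -0.51. The SE in that fit was 0.16, with an unadjusted p of 0.0126 and an adjusted p of 0.195 by the quasi-likelihood test.

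SMPD1 encodes acid sphingomyelinase, which turns secreted sphingomyelin into ceramide (identifier 100307047, chromosome 15, from 45963353 to 45967178, minus strand). SMPD1 was at 63.6, 69.6 and 71.8 CPM in SM (128, 30034 and 30126) and at 44.6, 38.0 and 56.1 CPM in STH (XW3, XW5 and XW8). Every SM sheep was above every STH sheep, and the SM animals were close to each other. The mean of 68.3 ± 4.22 CPM (SD, n = 3) in SM sheep was 1.48-fold higher in the fit than the 46.2 ± 9.14 CPM (SD, n = 3) of STH sheep. SMPD1 had a log2 fold change of 0.56 (SE 0.17), just below the fold threshold, with an unadjusted p of 0.00913 and an adjusted p of 0.247. It lay between 0.44 and 0.73 with each sheep left out in turn, and the unadjusted p was under 0.05 in all 6 of those fits. The adjusted p was 0.0828 by DESeq2 and 0.0997 by the likelihood ratio test.

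PNPLA1 encodes the transacylase that adds linoleate to omega-hydroxyceramide and so completes acylceramide (identifier 101120362, chromosome 20, from 10246513 to 10300763, plus strand). PNPLA1 was at 70.1, 70.7 and 64.4 CPM in SM (128, 30034 and 30126) and at 55.2, 55.5 and 75.3 CPM in STH (XW3, XW5 and XW8). The STH sheep were split, with XW8 above every SM animal and the others below every SM animal. The means were 68.4 ± 3.50 CPM (SD, n = 3) in SM and 62.0 ± 11.5 CPM (SD, n = 3) in STH sheep, with a log2 fold change of 0.14 (SE 0.16, adjusted p = 0.616). This value was 0.06 without XW3, 0.07 without XW5, 0.30 without XW8 and 0.37 with the exon length trend removed (unadjusted p = 0.0663).

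The linoleate of acylceramide is oxidised in order by ALOX12B (12R-lipoxygenase), ALOXE3 (epidermal lipoxygenase 3) and the dehydrogenase SDR9C7. The lipoxygenase genes are neighbours on the minus strand of chromosome 11, with ALOX12B (identifier 101105929) from 27240279 to 27251336 and ALOXE3 (identifier 101121693) from 27260504 to 27282279, 9167 bp apart. ALOX12B had the fewest counts of the 10 genes, between 244 and 672 in each sheep. It was at 10.3, 10.4 and 17.1 CPM in SM (128, 30034 and 30126) and at 7.91, 11.9 and 15.1 CPM in STH (XW3, XW5 and XW8). The highest animal of the 6 was an SM sheep and the lowest an STH sheep. Between them, the other SM sheep lay below the other STH sheep. Its means were 12.6 ± 3.89 CPM (SD, n = 3) in SM and 11.6 ± 3.60 CPM (SD, n = 3) in STH sheep, and its log2 fold change was 0.12 (SE 0.29, adjusted p = 0.829). This value was below 0 without sheep 30126 (-0.15), without XW3 (-0.10) and with the share of fragments counted as a covariate (-0.05).

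ALOXE3 was at 28.7, 33.2 and 40.9 CPM in SM (128, 30034 and 30126) and at 18.1, 36.8 and 50.7 CPM in STH (XW3, XW5 and XW8). Both extremes were STH animals, and the highest of them was 2.80-fold above the lowest. The log2 fold change was -0.04 (SE 0.33, adjusted p = 0.952), with means of 34.3 ± 6.15 CPM (SD, n = 3) in SM and 35.2 ± 16.4 CPM (SD, n = 3) in STH sheep. It was above 0 without sheep 128 (0.07) and without XW8 (0.32), and on the RPKM scale (0.11). The ratio of the RPKM of ALOXE3 to that of ALOX12B was 1.44, 1.66 and 1.24 in SM (128, 30034 and 30126) and 1.19, 1.60 and 1.74 in STH (XW3, XW5 and XW8). Thus each sheep had more ALOXE3 than ALOX12B transcript per exon length, by a ratio that overlapped between the breeds.

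SDR9C7 (identifier 101104649, chromosome 3, from 162228813 to 162238675, plus strand) had the smallest difference of the 10 genes. It was at 33.1, 31.4 and 31.2 CPM in SM (128, 30034 and 30126) and at 32.2, 26.2 and 37.4 CPM in STH (XW3, XW5 and XW8). The SM animals all lay between the STH extremes. The means were 31.9 ± 0.997 CPM (SD, n = 3) in SM and 32.0 ± 5.62 CPM (SD, n = 3) in STH sheep. SDR9C7 had a log2 fold change of -0.001 (SE 0.16, adjusted p = 0.996), and its sign turned under several alternatives, from -0.13 without XW5 to 0.13 without XW8.

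SULT2B1 encodes the sulfotransferase that makes cholesterol sulfate, a regulator of shedding of the outermost cells (identifier 101122543, chromosome 14, from 54140471 to 54176615, plus strand). SULT2B1 was at 49.1, 65.3 and 85.0 CPM in SM (128, 30034 and 30126) and at 46.6, 43.4 and 60.2 CPM in STH (XW3, XW5 and XW8). Sheep 30034 and 30126 were above every STH animal, and sheep 128 was below XW8. The means were 66.5 ± 18.0 CPM (SD, n = 3) in SM and 50.1 ± 8.94 CPM (SD, n = 3) in STH sheep. For SULT2B1 the log2 fold change was 0.41 (SE 0.22), with an unadjusted p of 0.0977 and an adjusted p of 0.328. Without sheep 128 it was 0.59 (unadjusted p = 0.0141, adjusted p = 0.0898). In that fit 30.3% of all genes had an unadjusted p under 0.05. Without sheep 30126 the log2 fold change was 0.21 (unadjusted p = 0.313). It was 0.29 with the exon length trend removed (unadjusted p = 0.158) and 0.44 with upper quartile normalization (unadjusted p = 0.0795). With the share of fragments counted as a covariate, added after the data had been seen, it was 0.18 (unadjusted p = 0.342).

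The animals were not placed in a constant order by the 10 genes. XW8 had the highest level of the 6 sheep in 6 genes and 30126 in 3, while 30126 had the lowest level in 4 genes, and XW3 and XW5 in 3 each. Sheep 30126 was thus at the bottom for the synthesis and transport genes SPTLC3, CERS3, UGCG and ABCA12 and at the top for SMPD1, ALOX12B and SULT2B1. Sheep 128 and 30034 were at neither end for any of the genes. Within STH sheep the median SD of log2 CPM was 0.257 over the barrier lipid genes and 0.202 over all genes tested, and 8 of the 10 were above the latter. Within SM sheep the same medians were 0.219 and 0.282. In neither breed were all genes tested matched in level to the barrier lipid genes.

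**Figure D2:**
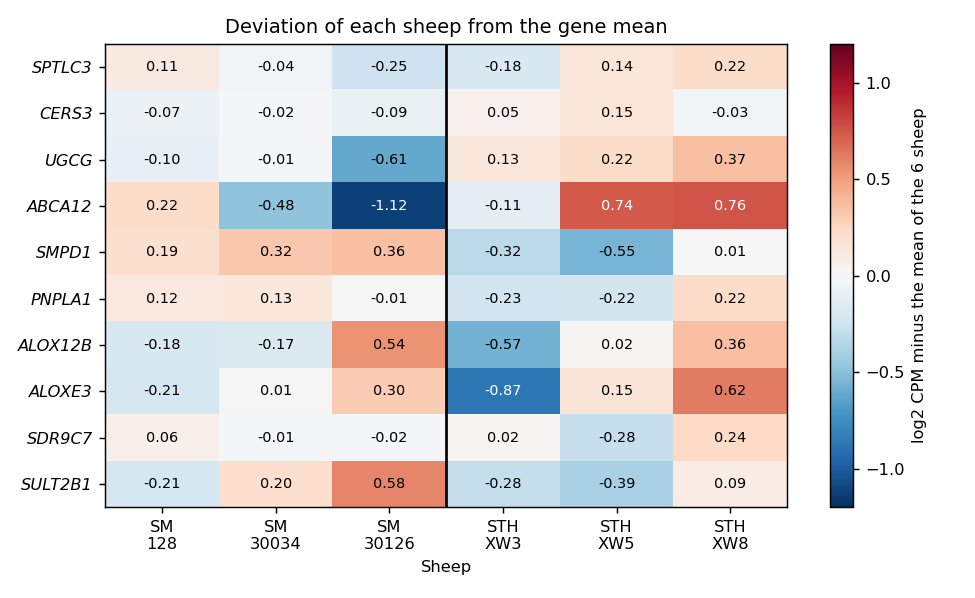
Log2 CPM of each barrier lipid gene in each sheep minus the mean of that gene over the 6 sheep, with red above and blue below the mean and SM sheep left of the black line. ABCA12 in sheep 30126 is at the lowest value, -1.12, and ABCA12 in XW8 at the highest, 0.76.

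Levels of different genes were compared on the deposited RPKM scale, which divides by exon length. SULT2B1 had the highest mean level over the 6 sheep, 35.2 ± 10.1 RPKM (SD, n = 6), followed by SMPD1 at 23.3 ± 5.96 RPKM (SD, n = 6). Each was above the next gene in the order in all 6 sheep. The other 8 genes had mean levels between 3.90 RPKM for ALOX12B and 9.55 RPKM for SPTLC3. Within this range neighbours in the order were not separated in every sheep. SPTLC3 was above SDR9C7 in 4 of 6 sheep, SDR9C7 above UGCG in 5, UGCG above PNPLA1 in 5 and PNPLA1 above CERS3 in 4. CERS3 was above ALOXE3 in 4 of 6 sheep, ALOXE3 above ABCA12 in 3 and ABCA12 above ALOX12B in 5. The mean RPKM of SULT2B1 was 9.03-fold that of ALOX12B.

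**Figure D3:**
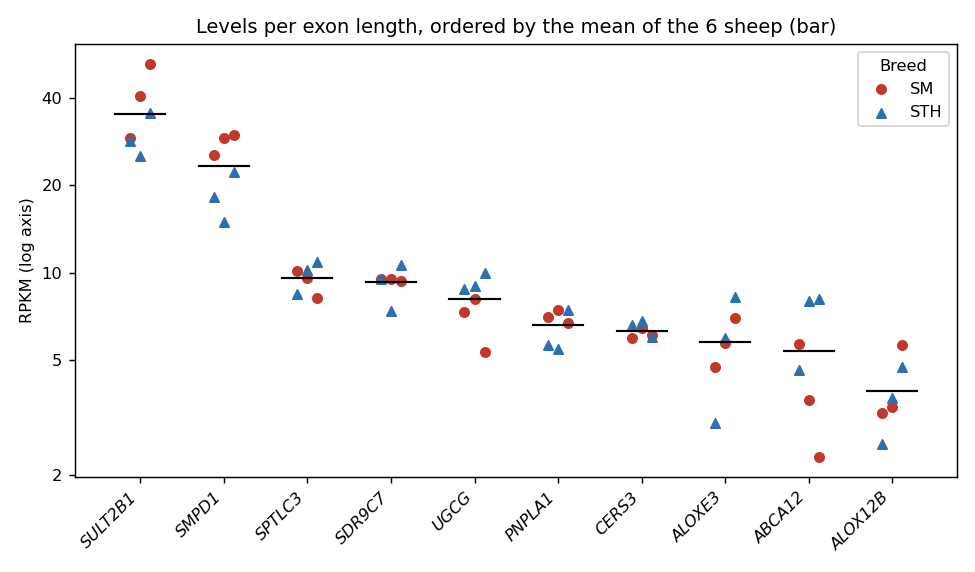
Deposited RPKM of the barrier lipid genes on a log axis, ordered by the mean of 6 sheep (bar), with circles for SM and triangles for STH sheep. SULT2B1 and SMPD1 stand above the other 8 genes in every animal.

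Whole skin was sequenced, and fewer cells of a type cannot be told apart from less RNA per cell. Of 10 markers of differentiated epidermis, led by the desmosomal cadherin DSG1, all were detected in each sheep. Their summed level was 3205 to 3914 CPM in SM and 4754 to 8756 CPM in STH sheep, without overlap. All 10 had a log2 fold change below 0, with a median of -0.98. At an unadjusted p under 0.05 there were 8 of them, against 10.8% of all genes for a higher level in STH sheep. KRT1, KRT10, IVL, CASP14, SCEL and CNFN were already reported by the study as higher in STH sheep from the same libraries. Their direction was thus known when the list was chosen. The markers differed in the direction of UGCG and ABCA12 and opposite to SMPD1, and their part in these differences was not tested. The 6 markers of basal epidermis, led by KRT5, summed to 8765 to 11010 CPM in SM and 10631 to 15187 CPM in STH sheep, which overlapped.

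Sebaceous glands, which also make lipid, were followed by 7 sebocyte markers, all detected in each sheep and led by ELOVL3. They summed to 854 to 1619 CPM in SM and 464 to 650 CPM in STH sheep, with no overlap. The sheep with the highest sum was 30126. It was at the top for SMPD1, ALOX12B and SULT2B1 and at the bottom for SPTLC3, CERS3, UGCG and ABCA12. The same sheep had the lowest sum of differentiated epidermis markers, 3205 CPM, and the highest share of fragments counted, 77.3%. In 1 animal these traits cannot be told apart. All 7 sebocyte markers were above 0 in log2 fold change, against 51.4% of all genes, with a median of 1.13. Of these, AWAT1, DGAT2L6, CIDEA, ELOVL3 and PLIN2 were already reported by the study as higher in SM sheep. The part of the sebocyte markers in the values of the barrier lipid genes was not tested. The 6 analysed inner root sheath markers, led by KRT71, summed to 10712 to 14038 CPM in SM and 12715 to 17863 CPM in STH sheep. The 5 dermal fibroblast markers, led by COL1A1, summed to 14386 to 20727 CPM and 16831 to 20748 CPM. The 4 smooth muscle markers, led by MYH11, were at 450 to 489 CPM in SM and 906 to 1054 CPM in STH sheep. The 4 adipocyte markers, led by FABP4, were at 28.8 to 64.3 CPM and 138 to 172 CPM, with LEP at 0 in at least 1 sheep. Neither sum overlapped between the breeds, but that of the adipocyte markers was nearly all FABP4, and ADIPOQ and PLIN1 overlapped. The study had also reported DES, MYH11, ACTG2, PLN and FABP4 as higher in STH sheep.

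The barrier lipid genes were also expressed relative to the summed counts of the basal keratins KRT5 and KRT14. The keratin sum was lower in SM sheep, and dividing by it added 0.42 to the log2 difference of every gene. On this scale 8 of the 10 genes had the higher mean in SM sheep, against 78.5% of all genes tested with a count in every sheep. The median log2 difference was 0.46 for the barrier lipid genes and 0.44 for all genes, so that they were near the background. SMPD1 was at 8.75, 7.36 and 8.03 counts per 1000 keratin counts in SM (128, 30034 and 30126) and at 4.91, 3.21 and 4.10 in STH (XW3, XW5 and XW8). The SM sheep were all above the STH sheep, by a log2 difference of 1.00. PNPLA1 and SULT2B1 also did not overlap on this scale, with log2 differences of 0.57 and 0.81. These 3 of the 10 genes compare with 29.9% of all genes that were higher in SM sheep without overlap. Each of these 3 genes had an exact two-sided permutation p of 0.1, the smallest that 3 against 3 sheep allow, and an adjusted value of 0.333 over the 10 genes.

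UGCG, which did not overlap between breeds on the library scale, was at 5.43, 4.42 and 3.09 counts per 1000 keratin counts in SM (128, 30034 and 30126) and at 5.09, 4.15 and 3.97 in STH (XW3, XW5 and XW8). The breeds overlapped on this scale, with a log2 difference of -0.06. ABCA12 kept the lower mean in SM sheep, at -0.50 in log2 (exact two-sided permutation p = 0.4). Dividing by the summed counts of the 10 differentiated epidermis markers added 0.90 to every gene. Relative to them 9 of the 10 genes had the higher mean in SM sheep, against 93.5% of all genes, and 8 did not overlap, against 58.1%. The median log2 difference was 0.94 for the barrier lipid genes and 0.92 for all genes. On that scale UGCG had the opposite sign, 0.42, and ABCA12 was at -0.02. These shifts were common to all genes, so that a sign on these scales depended on the denominator.

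**Figure D4:**
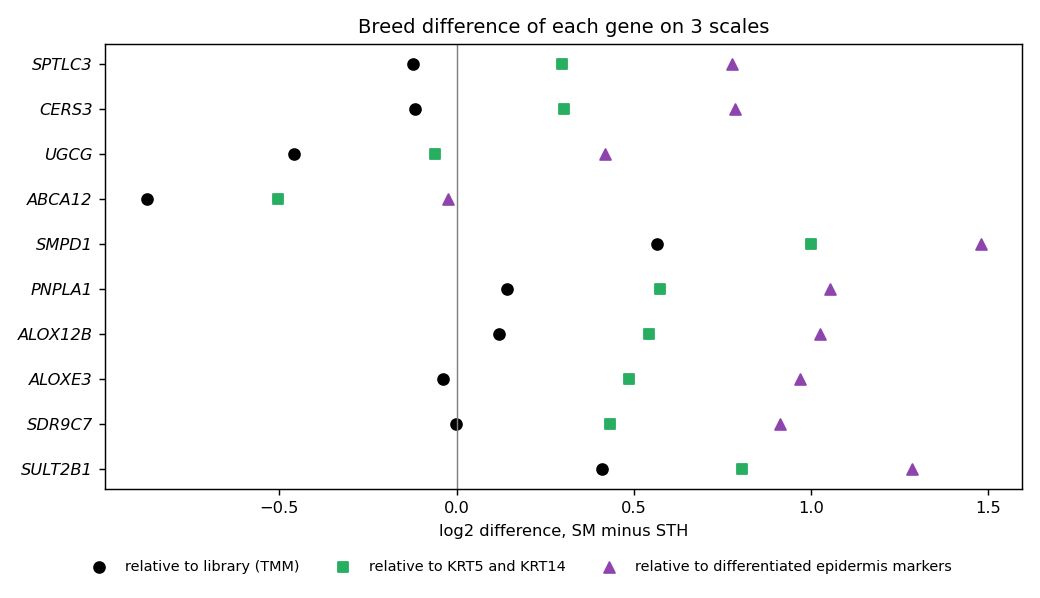
Log2 difference between SM and STH sheep of each barrier lipid gene on 3 scales, relative to the library (circles), to KRT5 and KRT14 (squares) and to 10 differentiated epidermis markers (triangles). The squares and triangles are shifted to the right by about the same amount for all genes, 0.42 and 0.90, because the denominators were lower in SM sheep, and ABCA12 is left of 0 on each scale, at -0.87, -0.50 and -0.02.

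Other genes of the pathway were described by 4 lists. Of 15 further ceramide synthesis genes, 14 were tested (SPTSSA had too few counts) and 0 passed the quasi-likelihood test. At an unadjusted p under 0.05, 2 were higher in SM and 1 in STH sheep, against 7.21% and 10.8% of all genes. The median log2 fold change was 0.01. CERS4 was already reported by the study as higher in SM sheep from the same libraries. SPTSSB, a small subunit that activates serine palmitoyltransferase, was at 158, 163 and 167 CPM in SM (128, 30034 and 30126) and at 296, 245 and 262 CPM in STH (XW3, XW5 and XW8). The animals of each breed were close together, and the log2 fold change was -0.72 (SE 0.14, adjusted p = 0.159). CERS4, a ceramide synthase of long fatty acids, was at 96.7, 93.2 and 138 CPM in SM and 55.4, 63.5 and 56.3 CPM in STH sheep in the same order. It differed in the opposite direction from SPTSSB, with a log2 fold change of 0.91 (SE 0.18, adjusted p = 0.183). The likelihood ratio test passed both genes, against 2.3% of all genes. DESeq2 passed both and CERS5, against 2.87% of all genes. CERS5 was named after its values were seen, with a log2 fold change of 0.63.

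Of 12 genes that supply very long, hydroxylated or activated fatty acids to acylceramide, 11 were tested, and no gene was found under the symbol CYP4F22, which was not analysed here. None passed the quasi-likelihood test, but 6 were at an unadjusted p under 0.05 and all 6 had the higher level in SM sheep without overlap, against 7.21% and 12.3% of all genes. ELOVL1, ELOVL4 and FA2H were already reported by the study as higher in SM sheep from the same libraries. The list was chosen with such results known, so these shares cannot serve as a test of it. The median log2 fold change of the list was 0.51. ELOVL4, the elongase of ultra long fatty acids, was at 543, 608 and 777 CPM in SM (128, 30034 and 30126) and at 284, 434 and 309 CPM in STH (XW3, XW5 and XW8). Its log2 fold change was 0.91 (SE 0.21, adjusted p = 0.215). FA2H, the fatty acid 2-hydroxylase, was at 193, 173 and 306 CPM in SM and 94.7, 128 and 116 CPM in STH sheep in the same order, with a log2 fold change of 0.99 (SE 0.23, adjusted p = 0.215). For both genes all SM sheep were above all STH sheep. The other 4 of these genes, named after their values were seen, were ELOVL1, SLC27A4, ABHD5 and TECR, with log2 fold changes of 0.94, 0.51, 0.65 and 0.53. ELOVL1, ELOVL4 and FA2H passed the likelihood ratio test (2.3% of all genes), and these and ABHD5 passed DESeq2 (2.87% of all genes). ABHD5 is the lipase cofactor that works with PNPLA1, and the log2 fold change of PNPLA1 was 0.14. The sum of sebocyte markers was also higher in each SM sheep, and its part in the values of this list was not tested.

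Of 14 genes that process lipids in and around lamellar bodies, 13 were tested, with no gene found under the symbol CTSD, which was not analysed here. None passed, and the median log2 fold change was 0.13. At an unadjusted p under 0.05, 1 was higher in SM and 1 in STH sheep, against 7.21% and 10.8% of all genes. PSAP, the precursor of the saposins that assist lipid hydrolases, was at 689, 816 and 1022 CPM in SM (128, 30034 and 30126) and at 665, 583 and 606 CPM in STH (XW3, XW5 and XW8). Sheep 128 was close to XW3, and the log2 fold change was 0.45 (SE 0.18, adjusted p = 0.260). SGMS1, a sphingomyelin synthase, was at 84.9, 87.1 and 59.7 CPM in SM and 97.2, 109 and 99.0 CPM in STH sheep in the same order. It was lower in each SM sheep, with a log2 fold change of -0.40 (SE 0.17, adjusted p = 0.274). Removal of the exon length trend moved the SGMS1 value to -0.08 (unadjusted p = 0.607), and without sheep 30126 it was -0.23 (unadjusted p = 0.0936). Without sheep 128, 5 genes of this list were at an unadjusted p under 0.05, against 30.3% of all genes. There were 0 without 30126, XW5 or XW8, against 11.3, 7.34 and 12.5% of all genes.

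Of 14 transcription factors of the barrier programme, all were tested and 0 passed, with a median log2 fold change of 0.25. This median was 0.13 without sheep 30126 and 0.14 with the share of fragments counted as a covariate. CEBPB and CEBPA, factors of keratinocyte and sebocyte differentiation, were the only ones at an unadjusted p under 0.05, against 18.0% of all genes. CEBPB was at 70.6, 69.3 and 81.8 CPM in SM (128, 30034 and 30126) and at 45.2, 51.2 and 50.8 CPM in STH (XW3, XW5 and XW8), with a log2 fold change of 0.59 (SE 0.14, adjusted p = 0.215). CEBPA was at 42.9, 40.8 and 53.0 CPM in SM and 26.4, 33.6 and 31.8 CPM in STH sheep in the same order, with a log2 fold change of 0.57 (SE 0.17, adjusted p = 0.246). Both were higher in each SM sheep than in any STH sheep, and these 2 of the 14 compare with 12.3% of all genes. CEBPB passed by the likelihood ratio test (2.3% of all genes) and by DESeq2 (2.87% of all genes).

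**Figure D5:**
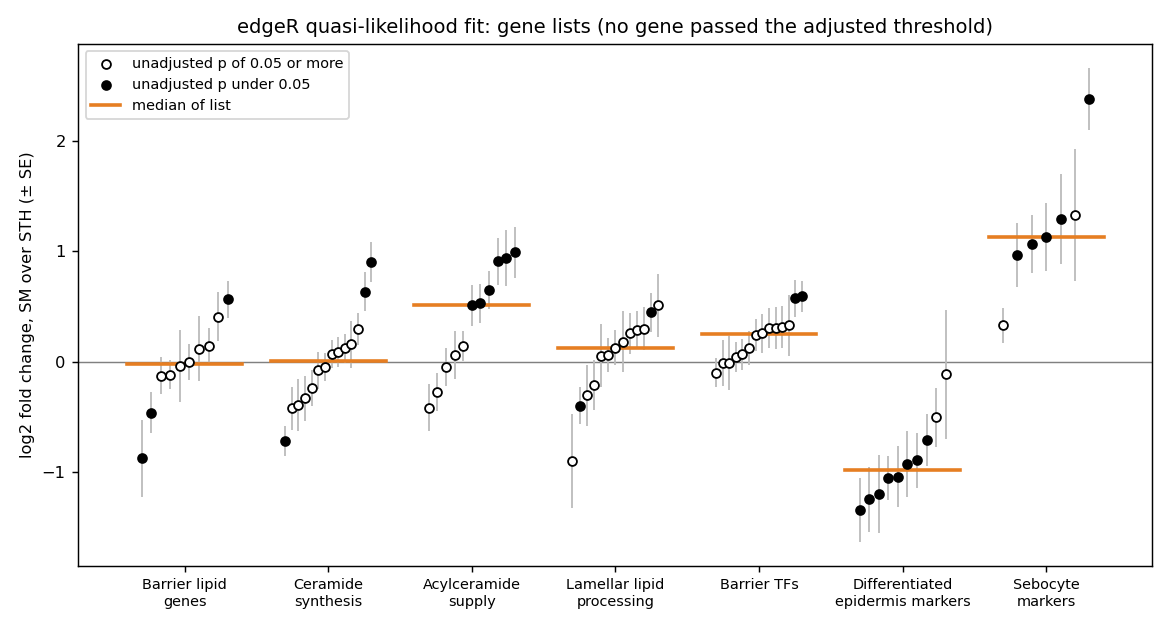
Log2 fold change ± SE of each tested gene of the barrier lipid genes, 4 other pathway lists and 2 marker lists, with filled points for an unadjusted p under 0.05 and an orange line for the median. The barrier lipid genes lie on both sides of 0 (median -0.02). The acylceramide supply genes (median 0.51) and sebocyte markers (median 1.13) lie mostly above 0, and the differentiated epidermis markers (median -0.98) below. The lists were chosen with earlier results of these data known.

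Enzymes that act on the same lipid were set side by side as ratios of RPKM within each sheep, for pairs chosen with values known and therefore without a test. The ratio of SMPD1 to SGMS1, which work in opposite directions on sphingomyelin, was 5.77, 6.16 and 9.26 in SM (128, 30034 and 30126) and 3.54, 2.69 and 4.36 in STH (XW3, XW5 and XW8). The breeds were apart, with the higher ratios in SM sheep, while the difference of SGMS1 alone was smaller with the exon length trend removed. SMPD1 was higher and SGMS1 lower in each SM sheep, so this ratio could not overlap and adds nothing to the single genes. STS is the sulfatase that removes the sulfate from cholesterol sulfate. The ratio of SULT2B1 to STS was 35.4, 50.0 and 52.4 in SM and 32.8, 23.5 and 29.2 in STH sheep. It was again higher in every SM sheep, though 35.4 and 32.8 were close. STS was low, at 0.81 to 1.00 RPKM in SM and 0.86 to 1.21 RPKM in STH sheep. The ratio of CERS3 to CERS4 was 0.209, 0.225 and 0.144 in SM and 0.397, 0.370 and 0.368 in STH sheep. CERS4 was thus the more abundant of this pair per exon length in all animals, by a wider margin in SM sheep. CERS4 alone was already apart between the breeds, while CERS3 overlapped. The ratio of SPTLC3 to SPTLC2 overlapped between the breeds.

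For each barrier lipid gene, the gene with the nearest pattern over the 6 sheep was found by the root mean square difference of centred log2 CPM among 13847 genes with a mean of at least 1 CPM. CERS3 was nearest to TP63, the master factor of stratified epithelium, at 0.0280, and SPTLC3 was nearest to the cohesin loader gene MAU2 at 0.0224. The distances for UGCG and NSL1, SMPD1 and SPRYD4, and SDR9C7 and HOXC4 were 0.0418, 0.0424 and 0.0419. PNPLA1 was nearest to TAZ at 0.0495 and SULT2B1 to ATG101 at 0.0505. ABCA12 was nearest to RPS6KA6 at 0.0702, ALOXE3 to EPS8L1 at 0.0724 and ALOX12B to ABCC8 at 0.114, the least close of the nearest genes. With 6 animals and many genes a near pattern was found for each of the 10, and none of them was another barrier lipid gene. The next in order were SYNRG for SPTLC3, ZMYND8 for CERS3, GPALPP1 for UGCG, PNN for ABCA12 and LTBP2 for SMPD1. For PNPLA1, ALOX12B, ALOXE3, SDR9C7 and SULT2B1 they were GTPBP3, SPATA20, ALDH3A1, PDLIM7 and PCSK6. The distances of these genes lay between 0.0302 for CERS3 and 0.132 for ALOXE3.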

How the data were processed

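Each of the 6 ewes (3 SM and 3 STH) gave 1 paired-end skin library, and breeds were taken from the sample labels. The authors checked reads with FastQC and mapped them to Oar_v4.0 in CLC Genomics Workbench. Total counts were deposited per gene without normalization, and which read classes were counted is not given in the sources used here. The kit does not mark strand. Exon lengths and counted fragments were computed from the ratio of the deposited counts to the RPKM values that the authors also deposited. The TPM values of the authors were used only as an alternative for levels, and a deposited score that they call CPM was not used.

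The filter required 10 or more counts in 3 or more sheep. Counts were normalized by TMM and tested with the quasi-likelihood test of edgeR 4.0.16 in R 4.3.3, with no term other than breed. Benjamini-Hochberg adjustment ran over all 15320 genes. SE is the size of the log2 fold change divided by the square root of F. The test was also run on simulated counts, with the outcome not reported here. Levels relative to keratin genes were compared by exact permutation. No 2 libraries were identical, and the labels name each sheep as an animal of its own.

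Alternatives were DESeq2 1.42.0, the likelihood ratio test, RLE and upper quartile normalization, other count filters, limma 3.58.1 with a trend on log2(RPKM + 0.1), removal of the exon length trend (loess span 0.5) and each sheep left out. Limma-voom, a newer dispersion estimate and the share of fragments counted as a covariate were added after seeing the data. The 10 genes and the pathway and marker lists were chosen with earlier results of these data known. Named from each pathway list were the genes past both thresholds and the 2 with the smallest unadjusted p, from each marker list the gene of highest mean, and for each barrier lipid gene the 2 nearest in pattern. Names are those of the files, with KRT14 matched by its identifier. KRT73 and TCHH were not analysed here. SPTLC3 and ABCA12 overlap 1 annotated gene each on the opposite strand, both at 0 counts in every sheep. Of all genes, 4291 had an RPKM above 0 but no count in any sheep, so 0 counts need not mean that no reads mapped. Floors of 3 counts cover counting error only.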

Additional observations from a re-analysis of the deposited data

How the results depend on the processing

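No paired analysis was possible because the sheep labels pair no SM with any STH animal. Without SM sheep 128, 1175 genes passed both thresholds, 1 of them a barrier lipid gene (ABCA12), with 3 ceramide synthesis genes, 3 acylceramide supply genes and 1 transcription factor. Over the 6 sheep left out in turn, these counts ranged from 0 to 1175, 0 to 1, 0 to 3, 0 to 3 and 0 to 1. DESeq2 passed 439 genes in all, with 3 ceramide synthesis genes, 4 acylceramide supply genes and 1 transcription factor, and the likelihood ratio test 352 in all, with 2, 3 and 1. No count filter passed 2 genes in all, the RPKM scale 11, removal of the length trend 8 and the newer dispersion estimate 2. None of these passed a barrier lipid gene. The number of barrier lipid genes at an unadjusted p under 0.05 was 1 to 4 with a sheep left out, in fits where 7.34 to 30.3% of all genes were at that p (30.3% without sheep 128, where the 4 arose), and 2 with the share of fragments as a covariate.

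Of 170 alternative log2 fold changes of the barrier lipid genes 19 changed sign. SPTLC3 was at 0.0028 and ALOX12B at -0.0548 with the covariate. CERS3 was at 0.0041 with the length trend removed. ALOXE3 was at 0.11 on the RPKM scale and with the length trend removed, and at 0.0702 by limma-voom. SDR9C7 was at 0.0308 with upper quartile factors, 0.0022 without a filter, 0.0564 on the RPKM scale, 0.0101 with the length trend removed, 0.0203 by limma-voom and 0.0212 with the covariate. With a sheep left out, ALOX12B ranged from -0.15 to 0.35, ALOXE3 from -0.35 to 0.32 and SDR9C7 from -0.13 to 0.13. Relative to basal keratins UGCG ranged from -0.25 to 0.16, and was 0.42 relative to the differentiated epidermis markers. Upper quartile factors, the RPKM scale and removal of the length trend shifted the median of all genes to 0.05, 0.05 and 0.08. The causes were not tested. Each barrier lipid gene had at least 244 counts in every sheep, and only 3 animals of each breed were sequenced.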
